A study of Mus musculus with 4 samples.

Results

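The genes described here encode orphan, adhesion and lipid-sensing G protein-coupled receptors of the mouse. They were chosen by symbol: 55 Gpr genes followed by a number, 24 Adgr genes, and 20 genes of the S1pr, Lpar, Hcar, Ffar, Fpr and Ptafr families. That gave 99 of the 18256 symbols in the files. G protein-coupled receptors cross the membrane with a bundle of helices and pass an outside signal to heterotrimeric G proteins, receptor kinases and arrestins. Lipid-sensing members bind lysophospholipids, fatty acids, oxysterols or platelet-activating factor, formyl peptide receptors bind peptides released by bacteria and mitochondria, and adhesion receptors carry a long extracellular part that binds matrix or neighbouring cells. Macrophages use such receptors to move, to sense metabolites and acid, and to find sites of infection.

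RNA was sequenced from macrophages grown from mouse bone marrow of WT genotype, in 4 libraries. Both groups were differentiated for 7 days in medium with 20 ng/ml MCSF, the macrophage growth factor. The M0 group (2 libraries) stayed unstimulated, and the M1 group (2 libraries) received LPS at 100 ng/ml together with IFN-γ at 20 ng/ml for 24 h. The labels give no strain, sex or age, and do not say whether libraries came from separate animals or whether MCSF stayed in the medium during stimulation. P-values therefore measure only the spread between these libraries, which may be technical.

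Library totals ran from 15921466 to 18987705 counts, and 3 counts in a library corresponded to 0.144 to 0.185 CPM, the count scaled to library totals corrected by TMM factors. The 10 macrophage markers checked, among them Csf1r, Lyz2 and Cd68, were present in every library at a summed 19838 to 25391 CPM. Markers of T and NK cells summed to 0.521 to 2.11 CPM, of B cells to 1.91 to 6.47 CPM and of dendritic cells to 7.38 to 10.9 CPM. Neutrophil markers summed to 368 to 394 CPM and stromal markers to 458 to 717 CPM. In bulk RNA, fewer cells of a type and less RNA per cell cannot be told apart.

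Of the 99 receptor genes, 57 passed the filter on low counts and were tested, 38 had counts too low to test and 4 had no count. The edgeR quasi-likelihood test called 36 of the 57 at an adjusted p of 0.05 (Benjamini-Hochberg, 12966 genes), against 48.2% of all tested genes. Of these 18 were higher in M1 (24.2% of all tested genes) and 18 lower (24.0%). The tested genes had passed partly through the group in which they were high, so these counts describe the list only. Counts by role group, given below, rest on 2 to 12 tested genes and are to be read against the same shares. The median log2 fold change of M1 over M0 was -0.26 over the 57 genes and -0.02 over all genes. Called and at least 2-fold higher were 15 receptor genes (9.93% of all tested genes) and at least 2-fold lower 16 (11.6%). At least 4-fold higher were 12 (5.13% of all tested genes) and at least 4-fold lower 8 (5.01%). The M0 and M1 libraries did not overlap in 48 of the 57 genes, against 74.9% of all tested genes. All 36 called genes were among the 48. With 2 libraries a group a call nearly requires this, so it adds nothing to the call.

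**Figure D1:**
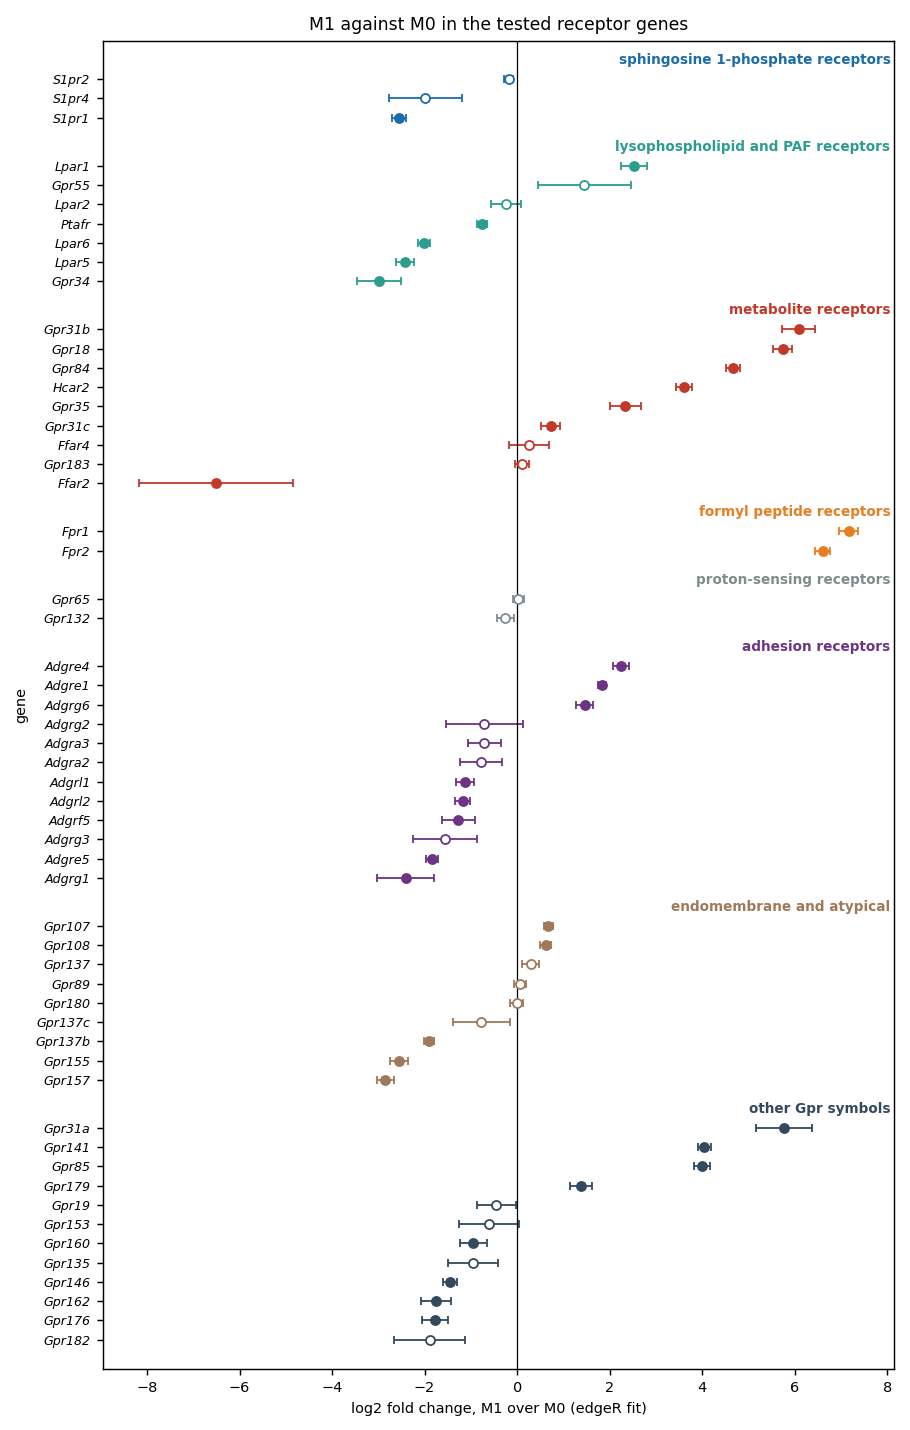
Log2 fold change of M1 over M0 (x axis) for 56 tested receptor genes (y axis), grouped by role, with bars of 1 standard error from the edgeR fit; filled points passed an adjusted p of 0.05 and open points did not. The formyl peptide receptor genes stand at 7.16 and 6.60, the proton-sensing receptor genes lie near 0, and Ffar2 had no count in M1, so its fitted value is no bound.

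The largest rises among the receptor genes were those of the formyl peptide receptor genes Fpr1 and Fpr2, which encode chemotactic receptors for formylated peptides. Fpr1 stood at 4.07 and 7.47 CPM in the M0 libraries and at 786 and 846 CPM in the M1 libraries. Its log2 fold change was 7.16 ± 0.21 (SE, here and below), a 143-fold rise (adjusted p = 5.16e-10). Fpr2, whose protein also binds serum amyloid A and annexin A1, stood at 6.42 and 8.57 CPM in M0 and at 796 and 653 CPM in M1 (6.60 ± 0.17, a 97.2-fold rise, adjusted p = 2.24e-10). Per kilobase of exon, Fpr1 and Fpr2 ranked 19 and 16 among the 56 tested receptor genes with a gene model in M0, and 2 and 3 in M1. Fpr3 had no count in 3 libraries and 3 counts in M1 replicate 2. Of all counts on the 99 receptor genes, Fpr1 took 0.142% and 0.263% in M0 and 10.3% and 10.7% in M1.

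Fpr1 and Fpr2 are neighbours on chromosome 17 (GRCm38.p6), 3.88 kb apart and read in opposite directions. Their promoters are shown because the genes rose together. The sequences are the 250 bases before each start, from RefSeq, at chr17:17883940-17884189 (minus strand) and chr17:17887574-17887823 (plus strand). Capitals mark a match to the gamma-activated site.
Fpr1: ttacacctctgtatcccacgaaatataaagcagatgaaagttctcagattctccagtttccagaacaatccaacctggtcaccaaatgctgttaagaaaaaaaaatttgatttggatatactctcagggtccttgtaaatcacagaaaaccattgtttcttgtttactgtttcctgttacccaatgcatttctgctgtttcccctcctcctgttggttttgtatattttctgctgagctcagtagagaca
Fpr2: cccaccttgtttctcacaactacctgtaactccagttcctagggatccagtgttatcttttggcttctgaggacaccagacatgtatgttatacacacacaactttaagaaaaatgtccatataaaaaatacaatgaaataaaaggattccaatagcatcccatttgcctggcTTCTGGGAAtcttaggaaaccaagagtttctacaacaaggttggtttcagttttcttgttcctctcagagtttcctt
The Fpr2 window holds 1 match, starting 77 bases before the start, and the Fpr1 window holds none. These letters alone do not show that a factor binds there. Reads of Fpr2 are uncertain in part, since 31.5% of its transcript's 50-base words also occur in the pseudogene Gm5966 or other annotated genes, against 0.0784% for Fpr1.

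Neutrophils are known for high formyl peptide receptor levels, so their markers are given beside these rises. Summed over the 12 markers, levels were 369 and 386 CPM in M0 and 394 and 368 CPM in M1. Csf3r alone stood at 108 CPM in both M0 libraries and at 233 and 246 CPM in M1, and the other 11 markers summed to 261 and 278 CPM in M0 and to 161 and 121 CPM in M1. Of 11 tested markers, 2 rose (Camp and Csf3r, 18.2%) and 8 fell (72.7%), against 24.2% and 24.0% of all tested genes. S100a8, which was not called, stood at 83.1 and 98.3 CPM in M0 and at 94.3 and 67.5 CPM in M1. In the M1 libraries Ly6g and Retnlg had no count, Mpo had 1 and 0 counts and Elane 0 and 2. Their M0 counts were low as well, from 4 to 59 in a library. The part of neutrophils in the Fpr1 and Fpr2 values was not tested.

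In the group named for receptors of fatty acids, ketone bodies and related metabolites, 9 genes were tested. Of these, 6 were higher (66.7%, against 24.2% of all tested genes), 1 was lower (11.1%, against 24.0%) and 2 were not called. Their median log2 fold change was 2.34. One of the 6 is Gpr31c, a pseudogene whose call was lost under other settings, as given with the Gpr31 genes. Gpr84, a receptor for medium-chain fatty acids, stood at 4.22 and 5.33 CPM in M0 and at 114 and 128 CPM in M1 (4.67 ± 0.15, a 25.5-fold rise, adjusted p = 1.08e-09). An antisense gene, Gm49482, covers 39.5% of the exons of Gpr84, and reads of the 2 strands cannot be told apart where the strand setting is unknown. Hcar2, the receptor for niacin and the ketone body beta-hydroxybutyrate, stood at 3.60 and 3.88 CPM in M0 and at 45.0 and 45.8 CPM in M1 (3.60 ± 0.17, a 12.1-fold rise, adjusted p = 1.55e-08). Gpr35, for which kynurenic acid is among the proposed ligands, stood at 1.53 and 1.62 CPM in M0 and at 6.71 and 9.29 CPM in M1 (2.34 ± 0.33, adjusted p = 0.000156). In each of these genes the lowest M1 library was above the highest M0 library, which a call nearly requires. The groups did not overlap in any of the 36 called genes, nor in 74.9% of all tested genes.

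The one gene of the group called lower was Ffar2, which binds the short-chain fatty acids acetate and propionate, at a very low level. It had 11 and 13 counts in M0 (0.527 and 0.753 CPM) and no count in M1. With M1 set at 3 counts over the group it was at least 6.82-fold lower (adjusted p = 0.00904). The call was lost without M1 replicate 1 (adjusted p = 0.0556) and without M1 replicate 2 (0.0513), and the gene fell under the filter without either M0 library. Ffar1, a receptor for long-chain fatty acids, had 4 and 6 counts in M0 and none in M1, too few to test. Ffar4, another long-chain fatty acid receptor, stood at 2.88 and 1.74 CPM in M0 and at 3.02 and 2.52 CPM in M1 (0.25 ± 0.42, adjusted p = 0.654). The sign of the Ffar4 value turned with library totals and without M0 replicate 2 (-0.05).

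Gpr18 and Gpr183 are neighbours on chromosome 14 with different values. Gpr18, a lipid-responsive receptor of leukocytes, stood at 0.911 and 0.927 CPM in M0 and at 49.5 and 49.4 CPM in M1 (5.74 ± 0.20, a 53.5-fold rise, adjusted p = 1.64e-09). Gpr183, which guides leukocytes along oxysterol gradients and is also called EBI2, stood at 40.2 and 32.0 CPM in M0 and at 36.6 and 41.2 CPM in M1 (0.10 ± 0.15, adjusted p = 0.589). Its libraries overlapped between groups, and its sign turned with library totals, with upper-quartile scaling and without M0 replicate 2. Per kilobase of exon, the mean of Gpr18 was 0.613 in M0 against 33.0 in M1, and that of Gpr183 12.5 and 13.5 CPM. The genes lie 36.4 kb apart on the same strand. The 250 bases before their starts are shown to set the 2 neighbours side by side, at chr14:121915889-121916138 and chr14:121965194-121965443 (both minus strand), with capitals for a match to the core of the interferon-stimulated response element.
Gpr18: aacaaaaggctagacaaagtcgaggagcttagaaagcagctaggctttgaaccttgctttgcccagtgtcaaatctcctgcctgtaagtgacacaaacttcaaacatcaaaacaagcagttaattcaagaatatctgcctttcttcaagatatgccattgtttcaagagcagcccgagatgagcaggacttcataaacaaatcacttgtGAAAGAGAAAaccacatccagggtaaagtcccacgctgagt
Gpr183: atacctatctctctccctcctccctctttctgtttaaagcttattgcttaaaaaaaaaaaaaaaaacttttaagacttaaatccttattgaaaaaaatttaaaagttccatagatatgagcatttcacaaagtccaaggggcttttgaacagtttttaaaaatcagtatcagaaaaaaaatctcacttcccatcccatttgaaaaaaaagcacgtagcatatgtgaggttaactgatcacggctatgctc
The Gpr18 window holds 1 match, starting 41 bases before the start, and the Gpr183 window holds none.

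Promoters of 300 bases (250 before to 50 after the start) were in the RefSeq table for 75 of the 99 genes, 45 of the 57 tested and 27 of the 36 called. Both strands of the first promoter listed per gene were searched, and a match describes letters, not a bound site. The response element core (GAAA, any 2 bases, GAAA) was found in 3.49% of 27025 promoters and in 1 of 14 called higher (Gpr18), and in 0 of 13 called lower. The gamma-activated site (TTCNNNGAA) was in 8.47% of all promoters, in 1 of 14 higher (Fpr2) and in 1 of 13 lower (Adgrl2). An NF-kB pattern (GGG, any 2 bases, TTTCC) was in 1.62% of all promoters and in none of these 27. An AP-1 pattern (TGANTCA) was in 7.93%, in 0 of 14 higher and in 1 of 13 lower (Ffar2). The PU.1 core (GAGGAA) was in 28.3%, in 6 of 14 higher, in 5 of 13 lower and in 6 of 18 tested but not called. Of those 18, the response element core was in 0 and the gamma-activated site in 1 (Gpr55). The NF-kB and AP-1 patterns were each in 1 of the 18 (Lpar2). In Fpr2 the PU.1 match starts 19 bases before the start and does not overlap the gamma-activated site. Matches in other listed promoters of called genes were not counted. Among them were AP-1 matches in Gpr35 (higher) and in Adgrg1 and Gpr146 (lower), and a gamma-activated site in Gpr146. No match says only that these letters are not in the window.

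The files count 3 Gpr31 genes, and the human gene of that name encodes a receptor for a hydroxy fatty acid. Gpr31b stood at 0.288 and 0.348 CPM in M0 and at 17.6 and 26.3 CPM in M1 (6.09 ± 0.36, adjusted p = 1.08e-07). Gpr31a, a pseudogene in the annotation, had 8 and 0 counts in M0 and 142 and 240 in M1 (5.77 ± 0.61, adjusted p = 1.49e-05). With M0 replicate 1 left out no M0 count remained, and without M0 replicate 2 its log2 fold change was 4.92. Gpr31c, also a pseudogene, stood at 7.14 and 6.95 CPM in M0 and at 11.9 and 11.4 CPM in M1 (0.73 ± 0.21, adjusted p = 0.0143). It lost its call with library totals (0.0808) and when M0 replicate 1 (0.0873) or M0 replicate 2 (0.0879) was left out. These values are uncertain: 87.6% of the 50-base words of Gpr31b and 67.0% of those of Gpr31a occur in other annotated genes, among them the pseudogene that spans Gpr31c. Gm6553, the gene that shares most words with Gpr31a, was itself called higher, with means of 0 CPM in M0 and 13.3 CPM in M1. How reads were divided among these copies was not tested. Gpr31a belongs to the remaining Gpr genes in the counts by role.

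The lysophospholipid and platelet-activating factor receptor genes had values in both directions. Of 7 tested genes 4 were lower (Gpr34, Lpar5, Lpar6 and Ptafr), 1 was higher (Lpar1) and 2 were not called, with a median of -0.76. Lower were 57.1% and higher 14.3%, against 24.0% and 24.2% of all tested genes. Lpar6, a lysophosphatidic acid receptor that lies inside an intron of Rb1, stood at 133 and 126 CPM in M0 and at 35.2 and 28.9 CPM in M1 (-2.01 ± 0.12, adjusted p = 1.78e-07). Lpar5, another receptor for that lipid, stood at 26.6 and 23.6 CPM in M0 and at 4.55 and 4.80 CPM in M1 (-2.42 ± 0.19, adjusted p = 1.27e-06). Gpr34, the receptor for lysophosphatidylserine, stood at 5.23 and 3.65 CPM in M0 and at 0.616 and 0.492 CPM in M1 (-2.99 ± 0.48, adjusted p = 0.000368). Ptafr, which senses platelet-activating factor, fell least, from 148 and 145 CPM to 81.8 and 91.5 CPM (-0.76 ± 0.10, adjusted p = 0.000112). The M0 and M1 libraries did not overlap in any of these 4 genes, which a call nearly requires. The same held for all 36 called genes and for 74.9% of all tested genes.

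Lpar1, a lysophosphatidic acid receptor of a separate subfamily, rose from 2.54 and 1.62 CPM in M0 to 12.3 and 12.1 CPM in M1 (2.53 ± 0.29, adjusted p = 2.66e-05). Per kilobase of exon, the M0 means were 23.9 CPM for Lpar6, 16.6 for Lpar5 and 0.485 for Lpar1. In M1 they were 5.94, 3.09 and 2.84 CPM, and Lpar5 and Lpar1 were closer there than in M0. Lpar1 is also common in fibroblasts. The 7 stromal markers summed to 717 and 695 CPM in M0 and to 458 and 520 CPM in M1, with 3 higher and 4 lower. Most of that sum was Col1a1 (means of 310 CPM in M0 and 203 in M1) and Col1a2 (367 and 248). Higher in M1 were Col3a1 (means of 5.24 and 13.9 CPM), Dcn (2.84 and 9.32) and Pdgfrb (5.45 and 10.6). The part of these markers in the Lpar1 value was not tested. Lpar2 stood at 5.42 and 3.77 CPM in M0 and at 4.00 and 3.81 CPM in M1 (-0.24 ± 0.32, adjusted p = 0.574), with its sign turned without M0 replicate 1 (0.05). Gpr55 had 15 and 0 counts in M0 and 10 and 24 in M1 (1.45 ± 1.00, adjusted p = 0.258). Its log2 fold change was 0.54 without M0 replicate 2 and 0.72 without M1 replicate 2, and without M0 replicate 1 no M0 count was left. Lpar3, Lpar4 and Gpr174 were too low to test.

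Among the receptors for sphingosine 1-phosphate, a lipid that directs leukocyte traffic, the 2 most expressed genes had different values. S1pr1 stood at 58.3 and 59.2 CPM in M0 and at 8.80 and 11.1 CPM in M1 (-2.56 ± 0.15, a 5.91-fold fall, adjusted p = 1.26e-07). S1pr2, which restrains migration in many cells, stood at 132 and 141 CPM in M0 and at 120.0 and 120.1 CPM in M1 (-0.18 ± 0.10, adjusted p = 0.143). Per kilobase of exon, S1pr1 and S1pr2 lay at 19.3 and 17.1 CPM in M0 and at 3.26 and 15.1 CPM in M1. In CPM S1pr2 was the higher in both groups, so their order in M0 depends on the exon lengths used (3046 and 7971 bases). S1pr4, a receptor of blood cells, had 1.05 and 0.927 CPM in M0 and 0.369 and 0.123 CPM in M1 (-1.98 ± 0.78, adjusted p = 0.0565). Without M1 replicate 1 the S1pr4 log2 fold change was -2.94, and without M1 replicate 2 it was -1.40. Of the 3 tested genes 1 was called lower, and 3 were with library totals or upper-quartile scaling. S1pr3 had 10 and 26 counts in M0 and 4 and 6 in M1, too few to test, and S1pr5 had none. S1pr1 is a known endothelial gene. Of 3 tested endothelial markers (Kdr, Pecam1 and Cdh5) all were higher in M1, their list summed to 6.81 and 5.85 CPM in M0 and to 17.9 and 23.1 CPM in M1, and Tek had no count. Their part in the S1pr1 value was not tested.

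**Figure D2:**
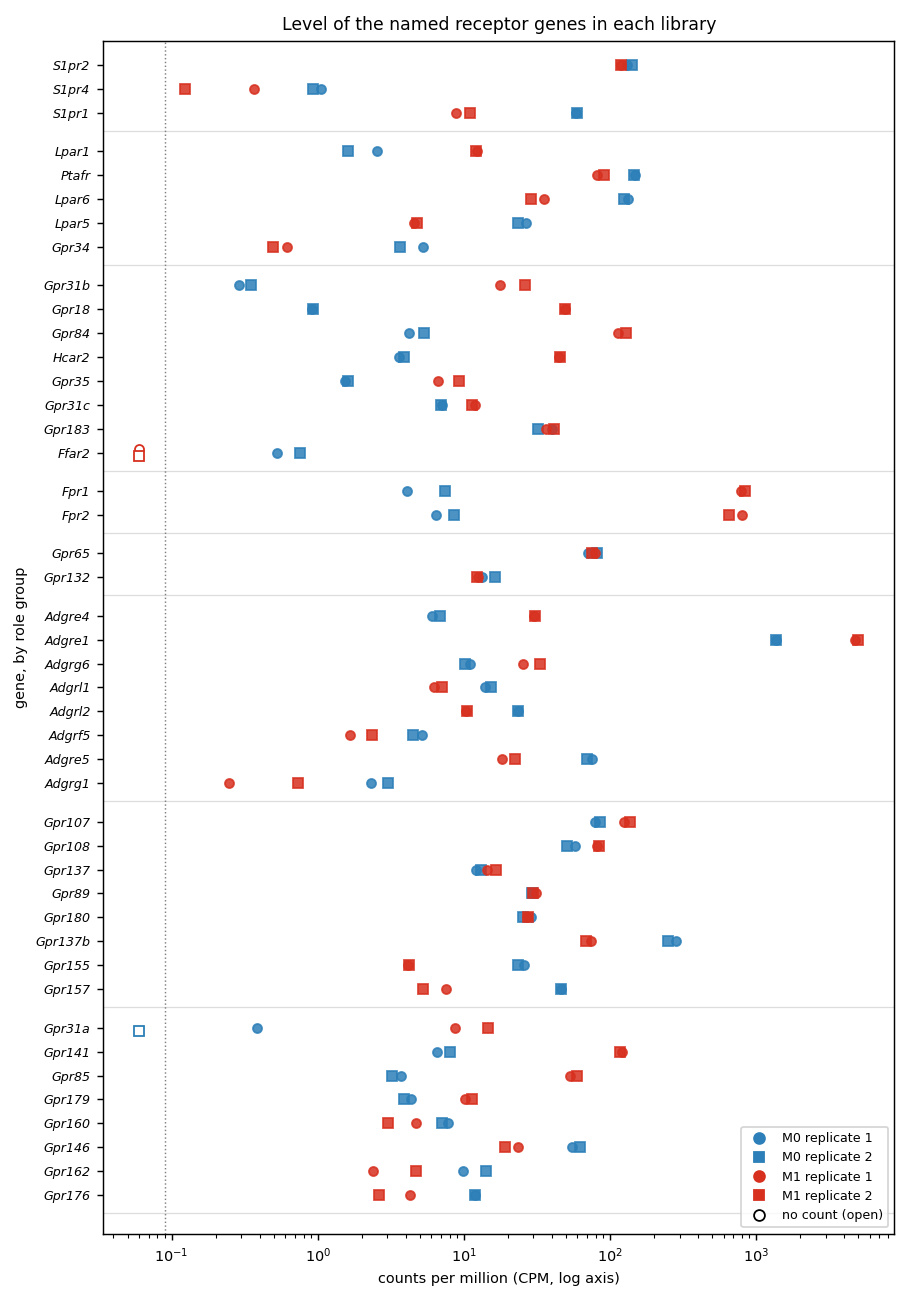
Level in CPM (x axis, log scale) of the named receptor genes (y axis, by role group) in each of the 4 libraries, with circles for replicate 1 and squares for replicate 2. Open symbols left of the dotted line mark libraries without a count; Fpr1 and Fpr2 lie under 10 CPM in both M0 libraries and above 650 CPM in both M1 libraries.

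Neither Gpr65 nor Gpr132, genes of receptors that respond to extracellular acid or, for Gpr132, to lipids as well, was called. Gpr65 stood at 70.5 and 81.2 CPM in M0 and at 78.8 and 75.5 CPM in M1 (0.03 ± 0.11, adjusted p = 0.872). Its sign turned with library totals, with upper-quartile scaling and without M0 replicate 1 or M1 replicate 1. The antisense gene Gm47566 covers 24.7% of its exons. Gpr132 stood at 13.4 and 16.4 CPM in M0 and at 12.5 and 12.4 CPM in M1 (-0.26 ± 0.19, adjusted p = 0.275), and was called lower with library totals only (0.0366). Gpr4 had at most 7 counts in a library.

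Of the 24 adhesion receptor genes 12 were tested, with 5 lower, 3 higher and 4 not called, and a median of -0.95. Lower were 41.7% and higher 25%, against 24.0% and 24.2% of all tested genes. Adgre1 encodes the F4/80 antigen, a surface marker of mouse macrophages. It stood at 1367 and 1371 CPM in the M0 libraries and at 4729 and 5028 CPM in the M1 libraries, and rose 3.56-fold (1.83 ± 0.09, adjusted p = 3.09e-08). Per kilobase of exon it was the receptor gene with the highest level in both groups, with means of 423 CPM in M0 against 1507 CPM in M1. It took 47.8% and 48.2% of all counts on the 99 genes in M0 and 61.7% and 63.3% in M1. Adgre4, a relative of Adgre1 on the same chromosome, stood at 6.09 and 6.89 CPM in M0 and at 30.5 and 30.7 CPM in M1 (2.24 ± 0.17, adjusted p = 1.01e-06). Adgrg6, known for its part in nerve myelination, stood at 11.1 and 10.2 CPM in M0 and at 25.5 and 33.0 CPM in M1 (1.46 ± 0.18, adjusted p = 4.98e-05). In all 3 the groups did not overlap, which a call nearly requires, as in all 36 called genes and 74.9% of all tested genes.

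Adgre5, which encodes CD97, stood at 75.5 and 70.2 CPM in M0 and at 18.4 and 22.3 CPM in M1 (-1.84 ± 0.14, a 3.58-fold fall, adjusted p = 7.66e-07). On the other strand, Ddx39 covers 23.8% of its exons. The latrophilin genes Adgrl1 and Adgrl2, whose proteins bind teneurins and FLRT proteins, fell with log2 fold changes of -1.13 ± 0.20 and -1.17 ± 0.16. Adgrl2 stood at 23.5 CPM in both M0 libraries and at 10.3 and 10.5 CPM in M1, and Adgrl1 at 14.0 and 15.3 CPM in M0 and at 6.28 and 7.14 CPM in M1. Adgrf5, at 5.18 and 4.46 CPM in M0 and 1.66 and 2.34 CPM in M1 (-1.27 ± 0.36, adjusted p = 0.014), lost its call without M0 replicate 1 (0.13), M0 replicate 2 (0.0796) or M1 replicate 1 (0.0574). Adgrg1, which encodes GPR56, stood at 2.30 and 3.01 CPM in M0 and at 0.246 and 0.738 CPM in M1 (-2.41 ± 0.62, adjusted p = 0.00769). Its call was lost without M0 replicate 1 (0.0843) or M0 replicate 2 (0.126), and without M1 replicate 2 its log2 fold change was -3.38. Without either M0 library 3 adhesion receptor genes were called lower. Adgrg3, the neighbour of Adgrg1 on chromosome 8, stood at 0.911 and 2.95 CPM in M0 and at 0.739 and 0.554 CPM in M1 (-1.56 ± 0.69, adjusted p = 0.0872). Its log2 fold change was -2.18 without M0 replicate 1 and -0.49 without M0 replicate 2, and library totals called it lower (0.0466).

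The other 12 adhesion receptor genes were too low to test. Among them Adgrv1 had no count in M0 and 18 and 2 counts in M1, and Adgrg7 none in M0 and 4 and 8 in M1. With no low-count filter Adgrv1 was called higher, on counts that come mostly from M1 replicate 1. The brain receptor genes Adgrb1 and Adgrb2 had at most 12 counts in a library, and Adgrl4, an endothelial receptor gene, 4 counts in M0 replicate 1 and none elsewhere.

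**Figure D3:**
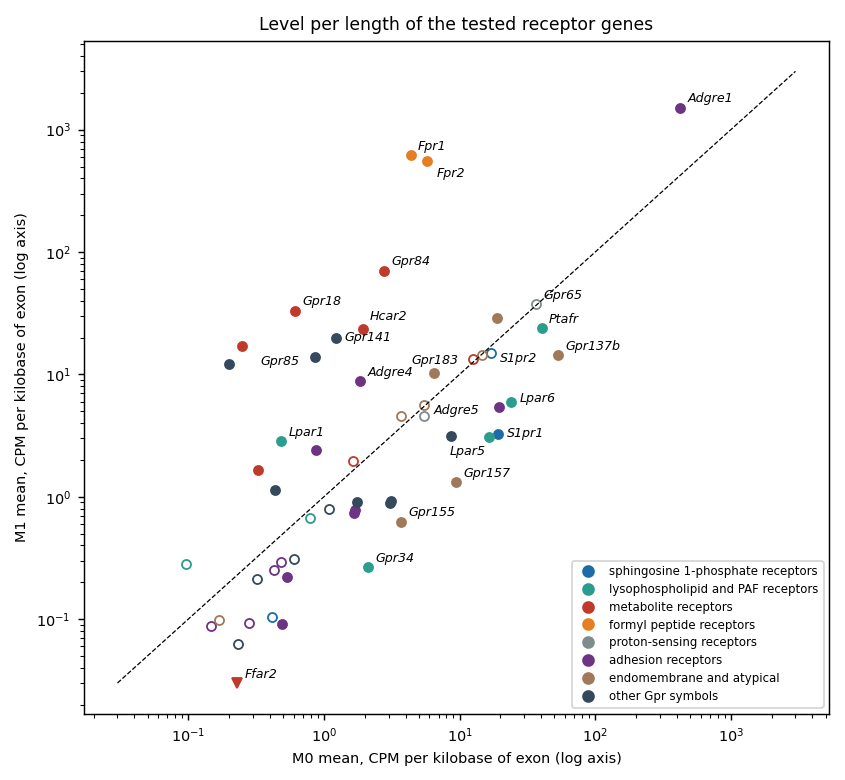
Mean level in M1 (y axis) against M0 (x axis) in CPM per kilobase of exon, on log scales, for 55 tested receptor genes with a gene model; filled points passed an adjusted p of 0.05, the dashed line marks equal levels and the triangle is Ffar2, with no count in M1, drawn at the lower edge. Adgre1 leads in both groups, and Fpr1 and Fpr2 move from 4.36 and 5.79 to 616 and 559.

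The endomembrane and atypical group holds genes of membrane proteins that share the receptor-like fold or the name, several of them known from the Golgi or lysosome. All 9 were tested, and 3 were lower, 2 higher and 4 not called, with a median of -0.01. Lower were 33.3% and higher 22.2%, against 24.0% and 24.2% of all tested genes. Gpr137b, a lysosomal membrane protein linked to nutrient signalling, had the second highest level per kilobase in M0. It stood at 284 and 252 CPM in M0 and at 74.7 and 68.9 CPM in M1 (-1.90 ± 0.11, adjusted p = 8.12e-08), and 28.6% of its 50-base words also occur in other annotated genes, mostly the pseudogene Gpr137b-ps. Gpr155, a lysosomal cholesterol sensor, stood at 25.8 and 23.5 CPM in M0 and at 4.12 and 4.24 CPM in M1 (-2.56 ± 0.19, adjusted p = 8.69e-07). Gpr157, a receptor known from the primary cilium, stood at 46.2 and 46.6 CPM in M0 and at 7.57 and 5.29 CPM in M1 (-2.85 ± 0.18, a 7.21-fold fall, adjusted p = 2.39e-07). For these 3 genes every M1 library was below every M0 library, which a call nearly requires. The groups did not overlap in any of the 36 called genes, nor in 74.9% of all tested genes.

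The Golgi proteins Gpr107 and Gpr108 rose by smaller steps. Gpr107 stood at 79.2 and 85.9 CPM in M0 and at 126 and 138 CPM in M1 (0.68 ± 0.11, adjusted p = 0.000315), and Gpr108 at 57.3 and 50.7 CPM and at 81.7 and 83.8 CPM (0.61 ± 0.11, adjusted p = 0.000979). Gpr89, the Golgi pH regulator, stood at 29.1 and 29.3 CPM in M0 and at 31.1 and 29.6 CPM in M1 (0.05 ± 0.13, adjusted p = 0.769), with its sign turned by library totals and upper-quartile scaling. Genes on the other strand, Gja5 and Pdzk1, cover 27.9% of the Gpr89 exons. Gpr180 stood at 29.0 and 25.5 CPM and at 27.0 and 27.3 CPM (-0.01 ± 0.14, adjusted p = 0.978), with its sign turned without M0 replicate 1 or M1 replicate 1. Gpr137 stood at 12.1 and 13.2 CPM and at 14.3 and 16.5 CPM (0.29 ± 0.18, adjusted p = 0.206), and Gpr137c stayed under 2 CPM in every library.

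Of the 33 remaining Gpr genes, most of them orphans with no agreed ligand, 12 were tested. Among these 4 were higher, 4 lower and 4 not called, with a median of -0.78. Each direction held 33.3%, against 24.2% higher and 24.0% lower among all tested genes. Gpr141, an orphan receptor of myeloid cells, stood at 6.52 and 8.05 CPM in M0 and at 121 and 118 CPM in M1 (4.04 ± 0.14, a 16.5-fold rise, adjusted p = 1.64e-09). Its relative Gpr141b had 2 counts in M1 replicate 1 and none elsewhere. Gpr85, a conserved orphan best known from the brain, stood at 3.74 and 3.24 CPM in M0 and at 53.2 and 59.2 CPM in M1 (4.00 ± 0.17, a 16.0-fold rise, adjusted p = 6.78e-09). Gpr179, known from retinal bipolar cells, stood at 4.36 and 3.88 CPM in M0 and at 10.2 and 11.4 CPM in M1 (1.38 ± 0.24, adjusted p = 0.000726). The fourth was Gpr31a, described above.

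Among the genes that fell, Gpr146, a receptor linked to cholesterol handling in the liver, stood at 54.98 and 62.2 CPM in M0 and at 23.6 and 19.2 CPM in M1 (-1.45 ± 0.14, adjusted p = 8.75e-06). Gpr176, an orphan of the brain's clock, stood at 11.9 and 11.99 CPM and at 4.31 and 2.65 CPM (-1.78 ± 0.27, adjusted p = 0.000291). Gpr162 stood at 9.92 and 14.1 CPM in M0 and at 2.40 and 4.67 CPM in M1 (-1.76 ± 0.32, adjusted p = 0.00103), and was not called without M0 replicate 2 (0.0816). Gpr160 stood at 7.77 and 7.07 CPM and at 4.68 and 3.01 CPM (-0.95 ± 0.30, adjusted p = 0.0219), and was not called without M0 replicate 1 (0.175), M0 replicate 2 (0.125) or M1 replicate 2 (0.107). Without M0 replicate 2, 2 genes of the group were called lower. The 4 that did not pass, Gpr19, Gpr135, Gpr153 and Gpr182, stayed under 4 CPM in every library. The 21 untested genes of the group included Gpr171 (4 and 0 counts in M0, 16 and 6 in M1) and Gpr82 (12 and 4 counts in M0, 2 and 0 in M1), and Gpr21, Gpr62 and Gpr75 had no count.

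Over the whole list, 42 genes were untested and none of them exceeded 1.51 CPM in any library. Of the tested genes, 37 reached 10 CPM in 1 of the groups and 30 of these were called, against 6 of the 20 below that level. Higher counts make any gene easier to call, and the level was taken from the group in which a gene was high. The shares of all tested genes at these levels were not computed, so these counts describe the list only. Summed levels of the 99 genes were 2863 and 2847 CPM in M0 and 7666 and 7941 CPM in M1. Without Adgre1, Fpr1 and Fpr2 the sums were 1485 and 1459 CPM in M0 and 1354 and 1414 CPM in M1. Above 100 CPM were 5 genes in M0 (Adgre1, Gpr137b, Ptafr, S1pr2 and Lpar6) and 7 in M1 (Adgre1, Fpr1, Fpr2, Gpr107, Gpr84, S1pr2 and Gpr141).

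Genes that make or remove the ligands of these receptors, and those that carry their signal, were followed as a companion list. Of 54 tested, 23 were higher (42.6%, against 24.2% of all tested genes) and 15 lower in M1 (27.8%, against 24.0%). The shorter lists within it hold 3 to 15 tested genes, and their counts are to be read against the same shares. The median log2 fold change was 0.18. Without M0 replicate 1 the higher count was 15, in a fit that takes the spread from the M1 libraries.

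For sphingosine 1-phosphate, 2 of 7 tested genes rose (28.6%) and 3 fell (42.9%), against 24.2% and 24.0% of all tested genes. Plpp1, a phosphatase acting on lipid phosphates outside the cell, rose from 3.74 and 4.52 CPM to 49.1 and 42.1 CPM (3.47 ± 0.18). Sgpl1, the lyase that breaks the ligand down, fell from 690.0 and 669 CPM to 360.1 and 382 CPM (-0.87 ± 0.09). Sphk2, a kinase that makes it, rose from 54.6 and 66.6 CPM to 88.5 and 84.2 CPM (0.51 ± 0.12), and the phosphatase gene Plpp2 fell from 18.1 and 20.97 CPM to 8.31 and 4.86 CPM (-1.57 ± 0.25). Sphk1, the other kinase, was not called.

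For the other lysophospholipids and platelet-activating factor, 7 of 12 genes rose (58.3%), 1 fell (8.33%) and 4 did not pass. Among all tested genes 24.2% rose and 24.0% fell. Pla1a, a phospholipase that makes lysophosphatidylserine, rose from 0.288 and 0.232 CPM to 3.94 and 7.81 CPM (4.45 ± 0.56), while Abhd12, a lipase that degrades this lipid, fell from 348 and 371 CPM to 161 and 162 CPM (-1.15 ± 0.09). Lpcat2, which makes platelet-activating factor, rose from 70.3 and 84.9 CPM to 287 and 310.1 CPM (1.95 ± 0.12). Pla2g7, the secreted enzyme that inactivates it, rose from 225 and 288 CPM to 976 and 966 CPM (1.92 ± 0.12). The lipase gene Lipg had 2 counts over both M0 libraries and 245 and 239 counts in M1, which is 284 times as much (95% counting interval 78.1 to 2350). That interval treats counts as independent, and single counts may come in pairs.

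All 3 tested oxysterol genes were called, against 48.2% of all tested genes, and Gpr183 itself was not called. Hsd3b7, also on this list, had no entry in the data. Ch25h, which makes the precursor of the Gpr183 ligand, rose from 1.15 and 2.03 CPM to 40.4 and 42.0 CPM (4.72 ± 0.23). Cyp7b1, the next enzyme of that path, had 2 and 0 counts in M0 and 18 in each M1 library, which is 21.1 times as much (95% counting interval 5.43 to 181). Cyp27a1, another sterol hydroxylase, fell from 61.7 CPM in both M0 libraries to 5.60 CPM in both M1 libraries (-3.46 ± 0.15).

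Of the protein ligands of the formyl peptide receptors, Saa3 and Camp rose, with log2 fold changes of 10.36 ± 0.34 and 1.27 ± 0.29. Anxa1, which encodes annexin A1, fell from 494 and 514 CPM to 229 and 181 CPM (-1.30 ± 0.12). Of 7 tested ligands of adhesion receptors, 5 rose (71.4%) and 2 fell (28.6%), against 24.2% and 24.0% of all tested genes. Cd55, the partner of the Adgre5 product, rose from 0.671 and 2.78 CPM to 6.46 and 9.66 CPM (2.26 ± 0.51). Flrt3, a latrophilin partner, rose from 0.384 and 1.33 CPM to 5.42 and 6.89 CPM (2.87 ± 0.50), and the teneurin gene Tenm4 fell from 2.88 and 3.94 CPM to 0.616 and 0.738 CPM (-2.32 ± 0.49). In these pairs the receptor genes Adgre5, Adgrl1 and Adgrl2 were lower.

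Of 15 tested G protein subunit genes, 3 were higher and 3 lower (20% each), shares near those of all tested genes. Gna12 fell from 269 and 282 CPM to 99.7 and 95.3 CPM (-1.497 ± 0.10) and Gng2 from 80.01 and 74.0 CPM to 28.9 CPM in both M1 libraries (-1.41 ± 0.12). Gng12 rose from 138 and 135 CPM to 262 and 276 CPM (0.98 ± 0.09). Gnai2, the inhibitory subunit that most of these chemotactic and metabolite receptors use, stood at 852 and 904 CPM in M0 and at 894 and 863 CPM in M1 (0.00 ± 0.09, adjusted p = 0.994). Of 7 tested receptor kinases and arrestins, 2 rose (28.6%) and 4 fell (57.1%), against 24.2% and 24.0% of all tested genes. Grk2 rose from 347 and 374 CPM to 565 and 605 CPM (0.70 ± 0.10), and Arrb1 fell from 213 and 204 CPM to 101 and 124 CPM (-0.89 ± 0.12).

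**Figure D4:**
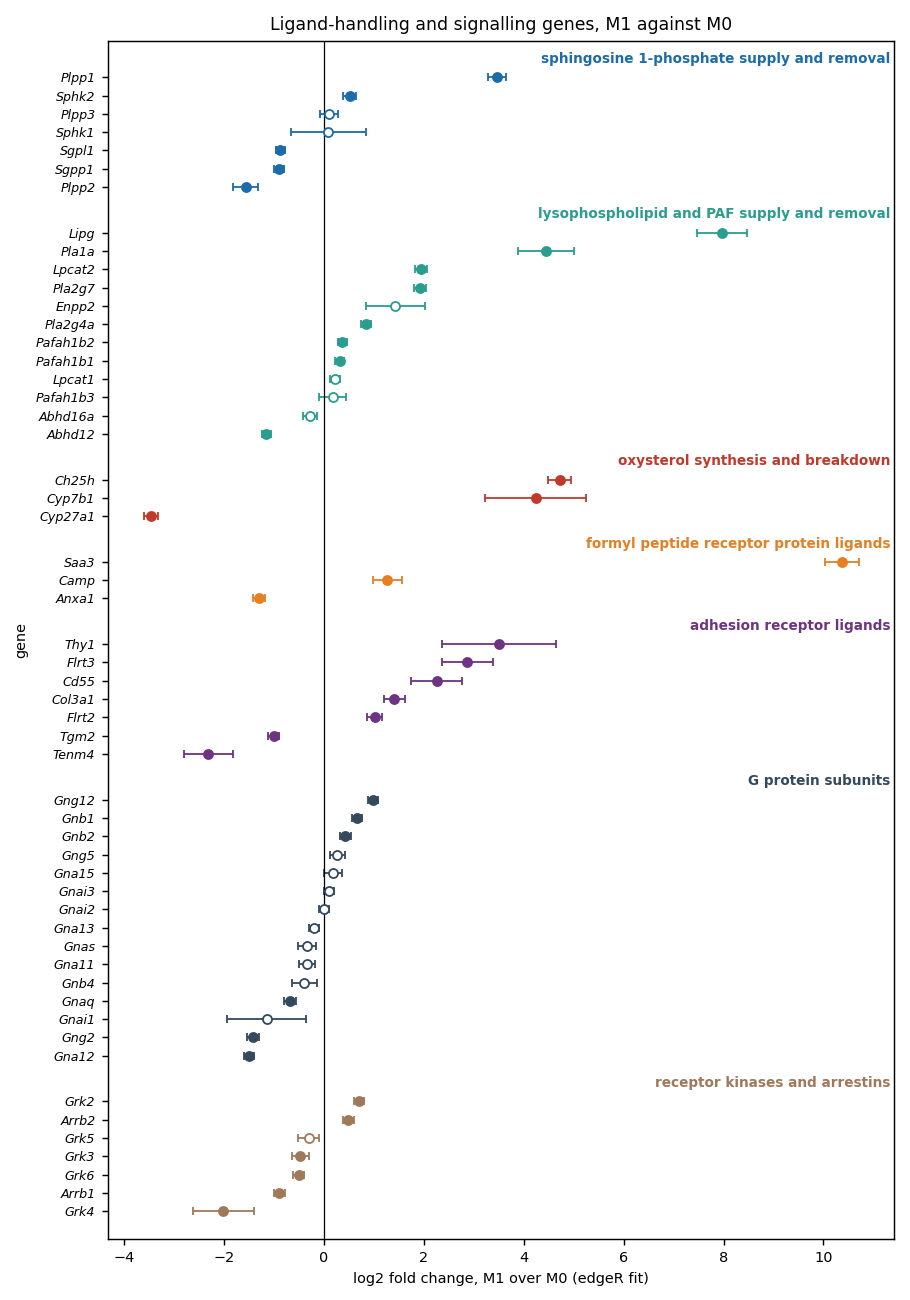
Log2 fold change of M1 over M0 (x axis) with bars of 1 standard error for the 54 tested genes (y axis) that make, remove or bind the receptors' ligands or carry their signal; filled points passed an adjusted p of 0.05. Lipg and Cyp7b1 rest on 2 counts in M0, and the G protein subunits lie between -1.497 and 0.98.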

How the data were processed

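Per the submitters' processing notes, the authors made the deposited counts with featureCounts of Subread 2.0.1 on mm10. The notes also name DESeq2 1.30.1 and R 4.0.4. Total RNA was depleted of ribosomal RNA, per the labels' protocols. Annotation and strand setting are not given in the sources used here. Of deposited values from 2 to 19 counts, 75.2% to 77.6% per library were even. Counts may therefore come in pairs, and counting intervals and the floor of 3 counts cover counting error only and are too narrow in that case.

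Genes were filtered with filterByExpr (minimum count 10, minimum total 15), scaled by TMM and tested with the quasi-likelihood test of edgeR 4.0.16 in R 4.3.3 (group only), with Benjamini-Hochberg adjustment over 12966 genes and a threshold of 0.05. Standard errors are the log2 fold change over the root of its F statistic. The common dispersion was 0.0118 with 2 residual degrees of freedom. On simulated data (12752 genes, the dispersion estimated from these libraries), 87% of 100 changes of 2-fold were recovered and 100% of 4-fold. There were 11 false calls. Every gene was given the common dispersion, far fewer genes changed than were called in the data, and genes with few counts were not among those changed. The recovery therefore does not cover members with few counts.

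The members and gene lists were chosen with earlier results of these data known. Named were all members with 10 CPM in the higher group, up to 4 called members per role and direction with the largest change, and a fixed list. Members named outside this rule were chosen after their values were seen, and likewise a few companion genes. RefSeq and GENCODE M21 on GRCm38, the assembly of mm10, held 99 and 98 of the 99 members. Exon lengths are unions over GENCODE transcripts. The 2 libraries within each group were not within counting noise of each other (chi-square per degree of freedom 9.15 in M0 and 13.3 in M1). Alternatives were 3 other scalings, DESeq2 1.42.0, limma-voom (limma 3.58.1), 2 other filters, a replicate block and each library left out. The values of 1 tested member are not reported here, though it is counted in the totals.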

Additional observations from a re-analysis of the deposited data

How the results depend on the processing

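Of the 36 called receptor genes, 36 kept call and direction with RLE or upper-quartile factors, DESeq2, limma-voom and no low-count filter, and 35 with library totals (Gpr31c lost) and the stricter filter (Ffar2 not tested). Between 30 and 34 kept both when a library was left out. The all-gene median shifted by -0.252 (log2) with library totals and by -0.104 with upper-quartile factors. With library totals 2024 genes were higher and 4776 lower, against 3140 and 3109, so 29.8% of calls were higher, and 41.0% with upper-quartile factors. Among the receptor genes library totals gave 17 higher and 24 lower. Lower calls were 3 among sphingosine 1-phosphate receptors with library totals (and 3 with upper-quartile factors), 1 among proton-sensing receptors with library totals, and 0 among metabolite receptors with the stricter filter. Log2 fold changes with library totals and upper-quartile factors were -0.149 and -0.00047 for Gpr183, -0.226 and -0.0776 for Gpr65, and -0.199 and -0.0504 for Gpr89.

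Leaving out a library gave 1691 to 2966 higher and 1463 to 2855 lower genes, 17 to 19 and 13 to 16 among receptor genes, and 15 to 23 and 10 to 16 among companion genes. Lower calls ran from 3 to 5 for adhesion receptors and from 2 to 4 for the remaining Gpr genes, and were 0 for metabolite receptors in each such fit. Log2 fold changes ran from -0.0465 to 0.281 for Gpr183, from -0.072 to 0.134 for Gpr65 and from -0.091 to 0.0922 for Gpr180. A group left with 1 library is assumed to vary like the other group.

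The labels do not say that equal replicate numbers pair libraries, and deviations of same-numbered libraries correlated at -0.11. With the replicate block 2957 genes were higher and 2974 lower, and with the crossed pairing, added after seeing the data, 3648 and 3627. Either fit called 18 receptor genes higher and 18 lower. The 42 untested genes stayed at or under 1.51 CPM in every library, where 3 counts are 0.144 to 0.185 CPM. Such low counts limit what can be detected in them, though Adgrv1 was called higher with no low-count filter.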
